A study of Mus musculus with 8 samples.

Results

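Major histocompatibility complex (MHC) class II antigen presentation was followed through 9 genes in whole mouse knee joints. They encode the antigen-binding chains (H2-Aa, H2-Ab1, H2-Eb1), their loading machinery (Cd74, H2-DMa, H2-DMb1), the transcriptional coactivator of the pathway (Ciita) and a pair of costimulatory ligands (Cd80, Cd86). The genes were found by exact gene name, and 9 of 9 were present among the 20681 rows of the deposited expression table. RNA was measured by poly-A sequencing in 8 joints, of which 4 are named as control and 4 as knockout. The labels state that all of the mice carried Acan-Cre together with Loxl2 fl/fl, that is, a Cre recombinase under the aggrecan gene of cartilage cells and Loxl2 alleles flanked by loxP sites. Loxl2 encodes a lysyl oxidase that crosslinks collagen. The control joints came from vehicle-treated mice and the others are described as conditional knockouts, so whatever those mice received instead of vehicle belongs to the comparison as well. The library names of both groups carry DMM, which usually stands for surgical destabilisation of the medial meniscus. They also carry LOXL2wt for the controls and LOXL2ko for the others, although the labels give both groups Loxl2 fl/fl. Age, sex and the time after surgery are not given in the labels, and the Cre driver is expected to act in cartilage cells, which are not the cells that usually carry class II.

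Class II molecules display peptides from engulfed material to helper T cells. An alpha and a beta chain pair in the endoplasmic reticulum with the invariant chain Cd74, cathepsins trim Cd74 in endosomes, and the H2-DM heterodimer exchanges its last fragment for a peptide. Ciita switches the genes on by binding a fixed assembly of factors on short promoter elements known as the X and Y boxes. In a joint, the pathway is best known from dendritic cells, B cells and a part of the macrophages of the synovium.

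The promoter elements can be read in the reference sequence. Promoter sequences of RefSeq (build GRCm38.p6, the same assembly as mm10) were present for 5 of the 9 genes in 6 windows, and the 250 bases before each annotated start were searched on both strands. The search was for a 6-base X box core, GNAACT, followed by TGATTGG, which contains the Y box, with 20 to 40 bases between them; the pattern was written after the sequences had been seen. It was present in H2-Aa, H2-Eb1 and H2-DMb1 and not in the windows of H2-DMa and Cd80. Of all 32851 promoter windows of that length, 59 (0.180%) held the pair, 7.23% held TGATTGG and 37.3% held GNAACT. Among the other genes of the lists described below that had a window, only H2-Eb2, a further class II beta chain gene, held it. The list genes without a window were not searched. A match is a description of the letters and not of binding. Whether the elements bear on how these genes varied across the joints was not tested, and H2-Ab1 and Cd74, which varied alike, had no window to search. Capitals mark the 2 elements, the strand is that of the gene, and the first pair of stretches ends at the base before the annotated start.
H2-Aa, chr17:34287824-34287943, minus strand: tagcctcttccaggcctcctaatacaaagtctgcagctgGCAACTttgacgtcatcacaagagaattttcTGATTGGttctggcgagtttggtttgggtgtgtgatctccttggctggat
H2-Eb1, chr17:34305747-34305866, plus strand: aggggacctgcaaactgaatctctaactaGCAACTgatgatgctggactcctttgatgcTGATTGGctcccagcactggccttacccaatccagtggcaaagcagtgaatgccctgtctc
H2-DMb1, chr17:34153105-34153134, plus strand, the 30 bases that end with its Y box: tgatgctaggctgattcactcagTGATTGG
The X core began 81, 91 and 94 bases before the start in H2-Aa, H2-Eb1 and H2-DMb1, and the gap to the Y element was 25, 24 and 25 bases. The X core of H2-DMb1, which lies before the stretch shown, read GTAACT.

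The libraries held 13991000 to 17411617 reads assigned to genes, recovered from the deposited normalised values. Loxl2, the check of the labels, had 282, 349, 1135 and 311 normalised reads in the 4 control libraries, in replicate order, against 893, 1468, 960.3 and 1518 in the libraries labelled knockout, which is against the label, so the groups are called by their labels. Y-linked RNA (Ddx3y at 1054 to 1099 normalised reads) was present in control replicates 3 and 4 and in knockout replicate 2, and Ddx3y was at 0 in the other 5 libraries, so the groups were of mixed and unequal sex. Of the tissue markers, skeletal muscle genes summed to 2706270 to 2931580 normalised reads in control joints against 1327260 to 1878820 in joints labelled knockout, and 9 of 18 were called lower. Fibroblast markers summed to 51042 to 147736 in control joints and 195660 to 306206 in the others, with 8 of 10 called higher, and cartilage markers to 3230.2 to 8197 and 9229.6 to 13254.5, with 2 of 8 called higher, although Matn3 was at 0 in control replicate 3. Erythroid markers had a median log2 difference of -1.93, with all 8 below 0 but 0 called, and overlapping sums (16789.7 to 99092.5 and 4046.4 to 42624.5). Over all genes tested, 11.6% were called higher and 11.6% lower. The part of these tissues in the class II differences was not tested. In bulk tissue, more cells of a type and more RNA per cell cannot be told apart. Control replicate 4 stood apart within the MHC, as given below.

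The class II chain genes were on average about 4 times as abundant in the libraries labelled knockout, but the groups overlapped. For H2-Aa, H2-Ab1, H2-Eb1 and Cd74, knockout replicates 2 and 4 lay below control replicate 1 but above the other controls. Knockout replicates 1 and 3 lay above every control joint for 8 of the 9 genes, all but Cd80, while knockout replicates 2 and 4 did so for 2, Cd80 and Cd86. Of the 9 genes, 1, Cd86, was called at an adjusted p under 0.05 (11.1%, against 23.2% of the 14949 genes tested), and it was higher. The differences of all 9 were above 0, with a median log2 difference of 1.66 beside 0.00 over all genes tested. All 9 passed the filter on low values. Of the genes tested, 1732 were called higher and 1729 lower; with the libraries scaled on summed reads outside muscle, blood and the most abundant genes, the median of all genes moved to 0.15 and the split to 2708 higher and 784 lower, and all 9 differences stayed above 0. Differences are log2(normalised count + 1) in the libraries labelled knockout minus control, which understates the change of low genes, with limma's moderated standard error (SE) and p-values adjusted by the Benjamini-Hochberg method over all genes tested. The labels do not say that the joints came from separate mice, so the p-values measure the spread between these samples.

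**Figure D1:**
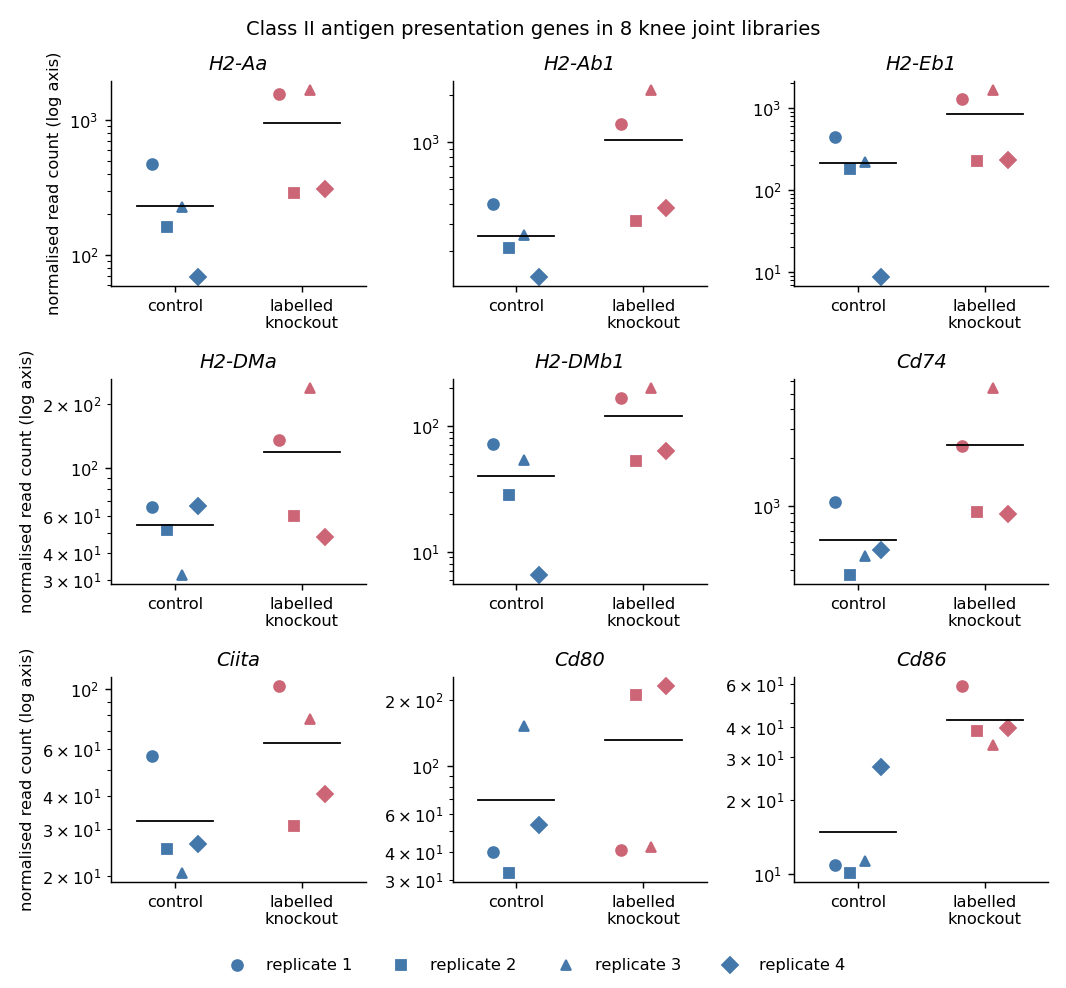
Normalised read counts (log axis) of the 9 class II antigen presentation genes in each library; symbols mark replicate numbers and bars the group means. In 7 panels knockout replicates 1 and 3 lie above every control library while replicates 2 and 4 lie below the highest control, Cd80 shows the opposite order, and Cd86 is the panel in which the groups do not overlap.

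The chains that form the class II molecule came first. H2-Aa, the alpha chain of the A molecule (chromosome 17, 34282744 to 34287823, minus strand of mm10), had 470.5, 162, 228 and 69.0 normalised reads in the control libraries and 1548, 288, 1656 and 309 in those labelled knockout, in replicate order here and below. The groups overlapped, since control replicate 1 exceeded 2 of the libraries labelled knockout. The means were 232 ± 172 and 950.3 ± 754 (SD, n = 4 each), and the log2 difference of 1.89 (SE 0.71) did not pass the test (limma adjusted p = 0.0788, exact two-sided permutation p = 0.114). H2-Ab1, the beta chain of the same molecule (chromosome 17, 34257689 to 34269419, plus strand), had 402, 209, 255 and 138 normalised reads in the control libraries and 1299, 315, 2135 and 377 in those labelled knockout. Its pattern repeated that of H2-Aa, with high values in knockout replicates 1 and 3 and the lowest in control replicate 4. The log2 difference was 1.69 (SE 0.58, limma adjusted p = 0.0609, exact permutation p = 0.0857), between means of 251 ± 112 and 1031 ± 862 (n = 4 each).

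H2-Eb1, the beta chain of the E molecule (chromosome 17, 34305867 to 34316674, plus strand), had 440.2, 179, 216 and 8.76 normalised reads in the control libraries and 1279.55, 227, 1631 and 228 in those labelled knockout. Control replicate 4 held 8 reads of it, far below the other 7 libraries. The log2 difference was 2.34 (SE 1.12, limma adjusted p = 0.155, exact permutation p = 0.143). Without control replicate 4 it came to 1.15 (limma adjusted p = 0.299). The count is also uncertain where strand was not used, because the antisense gene Gm20513 overlaps H2-Eb1. The alpha chain partner, annotated as H2-Ea-ps, is a polymorphic pseudogene in the reference strain and reached at most 4.40 normalised reads.

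Within a library the chain genes kept close proportions, with control replicate 4 as the exception. The log2 ratio of H2-Eb1 to H2-Aa lay between -0.44 and 0.14 in 7 libraries and was -2.84 in control replicate 4. The log2 ratio of H2-Ab1 to H2-Aa was 0.99 in that library and -0.25 to 0.37 in the others. Other MHC genes chosen after their values were seen were also lowest there. H2-K1, a classical class I gene, had 622 normalised reads in control replicate 4 against 1725 to 4941 elsewhere, and H2-T23, a nonclassical class I gene, had 26.3 against 197 to 694. H2-D1, another classical class I gene, had 3501 in control replicate 4, within the control range of 2414 to 4620.5. Whether this library carried other MHC alleles, whose reads can map less well to the reference, was not tested, so its low values, and the H2-Eb1 difference that includes them, may not measure RNA level alone.

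The loading machinery followed the chains to different degrees. Cd74, the invariant chain (chromosome 18, 60803848 to 60812652, plus strand, with Mir5107 inside it on the same strand), had 1061, 374, 487 and 535 normalised reads in the control libraries and 2359, 919, 5410.3 and 895 in those labelled knockout. Its highest value, in knockout replicate 3, was far above that of any other library, and control replicate 1 exceeded knockout replicates 2 and 4. The log2 difference of 1.66 (SE 0.55) just missed the threshold (limma adjusted p = 0.0522, exact permutation p = 0.0857), with means of 614 ± 305 and 2396 ± 2123 (n = 4 each). H2-DMb1, the beta chain of the peptide exchanger (chromosome 17, 34153072 to 34160230, plus strand), had 71.4, 28.3, 53.3 and 6.57 normalised reads in the control libraries and 167, 53.0, 199 and 63.4 in those labelled knockout. Knockout replicates 1 and 3 again stood highest, and control replicate 4 lowest with 6 reads. The log2 difference was 1.77 (SE 0.69, limma adjusted p = 0.0904, exact permutation p = 0.143).

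H2-DMa, the alpha chain of the exchanger (chromosome 17, 34119541 to 34139101, plus strand), had 65.98, 51.5, 31.8 and 66.8 normalised reads in the control libraries and 135, 59.9, 236 and 47.5 in those labelled knockout. Unlike its partner it was not low in control replicate 4, which held 61 reads of it as control replicate 1 did and where the log2 ratio of H2-DMb1 to H2-DMa was -3.16 against -0.84 to 0.73 in the other 7 libraries. The log2 difference between the groups was 0.90 (SE 0.47, limma adjusted p = 0.192, exact permutation p = 0.257). H2-DMa overlaps 4 annotated genes, among them Brd2 on the opposite strand, so that its count is uncertain, and H2-DMb1 has the related copy H2-DMb2 beside it.

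Ciita, the coactivator (chromosome 16, 10480059 to 10528418, plus strand, overlapped by Dexi on the opposite strand), had 56.2, 25.2, 20.6 and 26.3 normalised reads in the control libraries and 103, 30.8, 77.2 and 40.5 in those labelled knockout. The same 2 joints, knockout replicates 1 and 3, were highest, and control replicate 1 lay above the other control libraries. The log2 difference was 0.90 (SE 0.43, limma adjusted p = 0.152, exact permutation p = 0.143), with means of 32.1 ± 16.3 and 62.8 ± 33.3 (n = 4 each).

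The costimulatory ligands, which give T cells the second signal through Cd28, parted from the chains and from each other. Cd86 (chromosome 16, 36603869 to 36666081, minus strand) had 10.8, 10.1, 11.2 and 27.4 normalised reads in the control libraries and 58.8, 38.5, 33.7 and 39.6 in those labelled knockout. Every library labelled knockout exceeded every control, and the values of 3 control libraries rest on 10 to 12 reads. Cd86 rose from 14.9 ± 8.35 to 42.7 ± 11.1 (n = 4 each), a log2 difference of 1.55 (SE 0.36, limma adjusted p = 0.0155, exact permutation p = 0.0286, the smallest the design allows). Groups that do not overlap in this direction were seen for 11.7% of the genes tested, and in the opposite direction for 13.4%. Cd80 (chromosome 16, 38455561 to 38496335, plus strand) had 40.02, 32.3, 152 and 53.7 normalised reads in the control libraries and 40.9, 211, 42.4 and 231.5 in those labelled knockout. Its high values were in control replicate 3 and knockout replicates 2 and 4, none of which was a joint with high class II chains. The log2 difference of 0.74 (SE 0.67) did not pass the test (limma adjusted p = 0.448, exact permutation p = 0.286), and the ratio of Cd80 to Cd86 ranged from -0.51 in knockout replicate 1 to 3.65 in control replicate 3 on the log2 scale.

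The number called depended on the tool and on single libraries. edgeR's quasi-likelihood test on the recovered reads called 3 of the 9 genes, adding H2-Ab1 (edgeR adjusted p = 0.0372) and Cd74 (edgeR adjusted p = 0.0386), beside 22.2% of all genes. DESeq2 called 5, the same 3 with H2-Aa (DESeq2 adjusted p = 0.0452) and H2-DMb1 (DESeq2 adjusted p = 0.0282), beside 27.6%. With limma, 3 were called without control replicate 1 (H2-Aa, Cd74 and Cd86), 3 without knockout replicate 2 (H2-Ab1, Cd74 and Cd86) and 2 without knockout replicate 4 (Cd74 and Cd86). Without knockout replicate 3 the log2 differences of Cd74 and H2-Ab1 were 1.14 and 1.197 and neither was called. Cd86 stayed called in each of 19 alternatives run with limma, edgeR or DESeq2, with an adjusted p of 0.00201 to 0.0446. With Y-linked RNA as a covariate 1 gene, Cd86, was called (limma adjusted p = 0.0183). In the 5 libraries without it (2 control, 3 labelled knockout) the mean log2 level of H2-Aa, H2-Ab1, H2-Eb1 and Cd74 differed by 1.71, and in the 3 with it (2 control, 1 labelled knockout) by 1.27; the differences within these libraries were not tested separately.

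The joints of a group differed more in these genes than in most. The residual SD of log2 values within groups was 2.03 for H2-Eb1, 1.28 for H2-Aa, 1.23 for H2-DMb1, 1.19 for Cd80, 1.05 for H2-Ab1 and 0.99 for Cd74, against a median of 0.24 over the genes tested, so that these 6 exceeded at least 96.6% of them. Cd86 had the smallest of the 9, at 0.51, above 81.6% of the genes tested. H2-DMa (0.82) and Ciita (0.71) lay between.

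Levels were compared between genes per kilobase of the longest coding transcript with a consensus coding sequence. Cd74 was the most abundant, at 436 ± 217 normalised reads per kb in control joints against 1699 ± 1506 in joints labelled knockout (n = 4 each), and it exceeded H2-Ab1 in 8 of 8 libraries. H2-Ab1 (207 ± 92.2 in the control group) and H2-Aa (206 ± 152) could not be ordered beyond their spread, H2-Ab1 being higher in 6 of 8 libraries. H2-Aa exceeded H2-Eb1 (126 ± 106) in 8 of 8, and H2-Eb1 exceeded H2-DMa (32.6 ± 9.90) in 7, the exception being control replicate 4. H2-DMa, H2-DMb1 (28.4 ± 20.2) and Cd80 (21.9 ± 17.6) could not be ordered, while Cd86 (5.86 ± 3.29) and Ciita (5.34 ± 2.71) were the lowest and overlapped. With the length of all annotated exons in place of the transcript, H2-Aa fell below H2-Eb1 in the control group (61.2 and 108 per kb), so that part of the order rests on the length used.

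**Figure D2:**
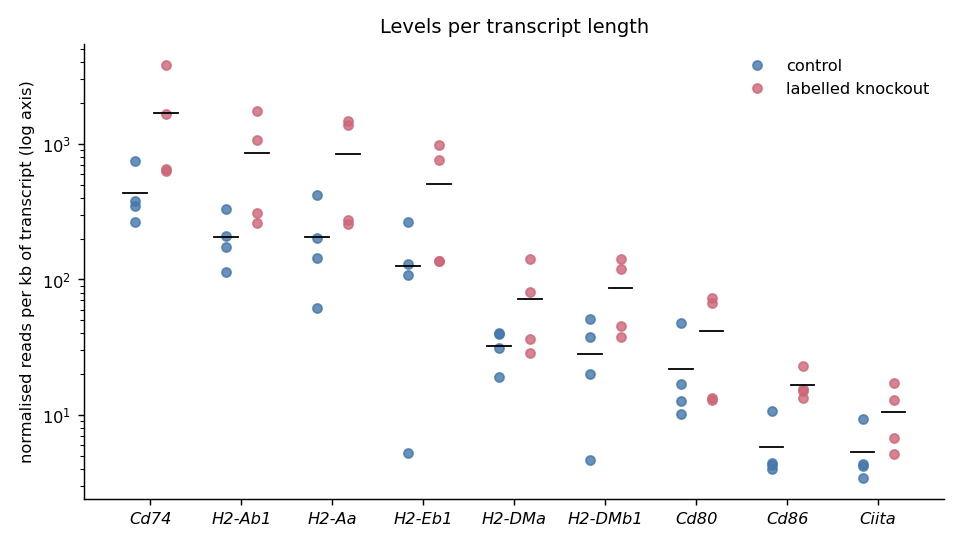
Normalised reads per kb of the longest consensus coding transcript (log axis) for the 9 genes, ordered by the control mean; each point is a library and bars are group means. Cd74 leads and Ciita and Cd86 are lowest, and the single low points of H2-Eb1 (5.25) and H2-DMb1 (4.68) in the control group are control replicate 4.

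Other genes of the pathway were taken from lists chosen with earlier results of these data known. Of 5 further class II chain and chaperone genes, 2 were abundant enough to test and 0 were called. H2-DMb2 had a log2 difference of 1.17 (SE 0.47, limma adjusted p = 0.0964) and H2-Ob, a chain of the H2-DM inhibitor, 1.26 (SE 0.59, limma adjusted p = 0.149). H2-Eb2 reached at most 11.97 normalised reads and H2-Oa 23.9. At an unadjusted p under 0.05 the count was 1, H2-DMb2.

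A list of genes that prepare peptides or trim the invariant chain also held Cd83. Most of those tested separated the groups more cleanly than the chains did. Of the 10 genes listed, 8 were in the table and tested, with a median log2 difference of 0.46. Of these, 5 were called higher and 0 lower, beside 11.6% of all genes in each direction. Under quantile normalisation 8 were called higher. Groups did not overlap for the 5, Ctss, Cd83, Ifi30, Lgmn and Ctsl, beside 11.7% of all genes tested in this direction. Ifi30, the thiol reductase of endosomes, had 251, 165, 122 and 182 normalised reads in the control libraries and 698, 332, 480 and 467 in those labelled knockout (log2 difference 1.45, SE 0.25, limma adjusted p = 0.00638). Cd83, which keeps class II at the cell surface, had 58.4, 43.4, 74.8 and 81.1, against 143, 139, 144 and 179 (1.25, SE 0.21, limma adjusted p = 0.00581). The values in the libraries labelled knockout were close together for Cd83, in contrast to the spread of the chains. Lgmn, a lysosomal endopeptidase, rose by 0.59 (SE 0.11, limma adjusted p = 0.0089). Ctss, the cathepsin that makes the last cut in Cd74, was at 756 to 1017 normalised reads in the 4 libraries labelled knockout and at 163 to 377 in the controls. Its lowest and highest values in the libraries labelled knockout differed less than those of Cd74, which ran from 895 to 5410.3.

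The calls among the factors that assemble on the X and Y boxes depended on the scaling. Of 7 tested, 0 were called higher and 1 lower, Nfyc, a subunit of the Y box factor (log2 difference -0.31, SE 0.09, limma adjusted p = 0.0305), a call lost when the libraries were scaled on summed reads outside muscle, blood and the most abundant genes (limma adjusted p = 0.19). That scaling called 2 others higher instead, Creb1 (0.47, limma adjusted p = 0.0277) and Nfya (0.42, limma adjusted p = 0.0496). Rfxap, a subunit of the X box factor, had a log2 difference of -0.40 (SE 0.14, limma adjusted p = 0.0594), with groups that did not overlap, and Creb1 one of 0.32 (SE 0.13, limma adjusted p = 0.0872). Of 9 genes of interferon gamma signalling and myeloid transcription, 8 were tested and 2 called, both higher, a share near the 23.2% of all genes tested that were called. Spi1, the myeloid factor PU.1, rose from 140 ± 65.7 to 451 ± 111 (n = 4 each; log2 difference 1.78, SE 0.33, limma adjusted p = 0.00795), and Ifngr1, a chain of the interferon gamma receptor, rose by 0.56 (SE 0.16, limma adjusted p = 0.0322). Irf8, a myeloid interferon regulatory factor, did not pass the test (log2 difference 0.56, SE 0.30, limma adjusted p = 0.198). Ifng itself was absent by name from the deposited expression table, so it has no value here.

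Of 8 other costimulation genes 4 were tested and 1 was called, again near the share of all genes. Cd40, the receptor through which T cells license antigen-presenting cells, rose by 0.84 (SE 0.26, limma adjusted p = 0.0419), a call lost under quantile normalisation (limma adjusted p = 0.139). Cd274, the gene of PD-L1, had 120.1, 30.3, 76.6 and 47.1 normalised reads in the control libraries and 167, 58.2, 165 and 66.02 in those labelled knockout, the same 2 joints being high as for the chains (limma adjusted p = 0.281). The receptor Cd28 had a difference of -0.49 (SE 0.27, limma adjusted p = 0.200).

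The class I pathway, which displays peptides from inside the cell, was also compared. All 12 of its genes were tested, and 4 were called, all higher, beside 11.6% of all genes called higher, with a median log2 difference of 0.61. The 4 were Tapbp (0.61, SE 0.09, limma adjusted p = 0.00458), Pdia3 (0.89, SE 0.15, limma adjusted p = 0.00608), H2-D1 (0.61, SE 0.17, limma adjusted p = 0.0306) and B2m (0.68, SE 0.21, limma adjusted p = 0.0425). Under the summed-read scaling 7 were called. The mean log2 level of the 4 main class II genes (H2-Aa, H2-Ab1, H2-Eb1 and Cd74) minus that of the class I genes was 0.82 and 1.73 in knockout replicates 1 and 3, between -0.60 and -0.47 in knockout replicates 2 and 4, and between -2.08 and -0.26 in the controls. Class II thus stood out from the mean of the class I list in the same 2 joints, but single class I genes differed. H2-K1 followed the mean of the 4 class II genes (Pearson's r of log2 values 0.85, and 0.91 with each group centred on its mean). H2-D1 did so less (0.69 and 0.37). H2-K1 had 4941 and 3560 normalised reads in knockout replicates 1 and 3, 1725 and 1812 in replicates 2 and 4, and 4142 in control replicate 1.

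**Figure D3:**
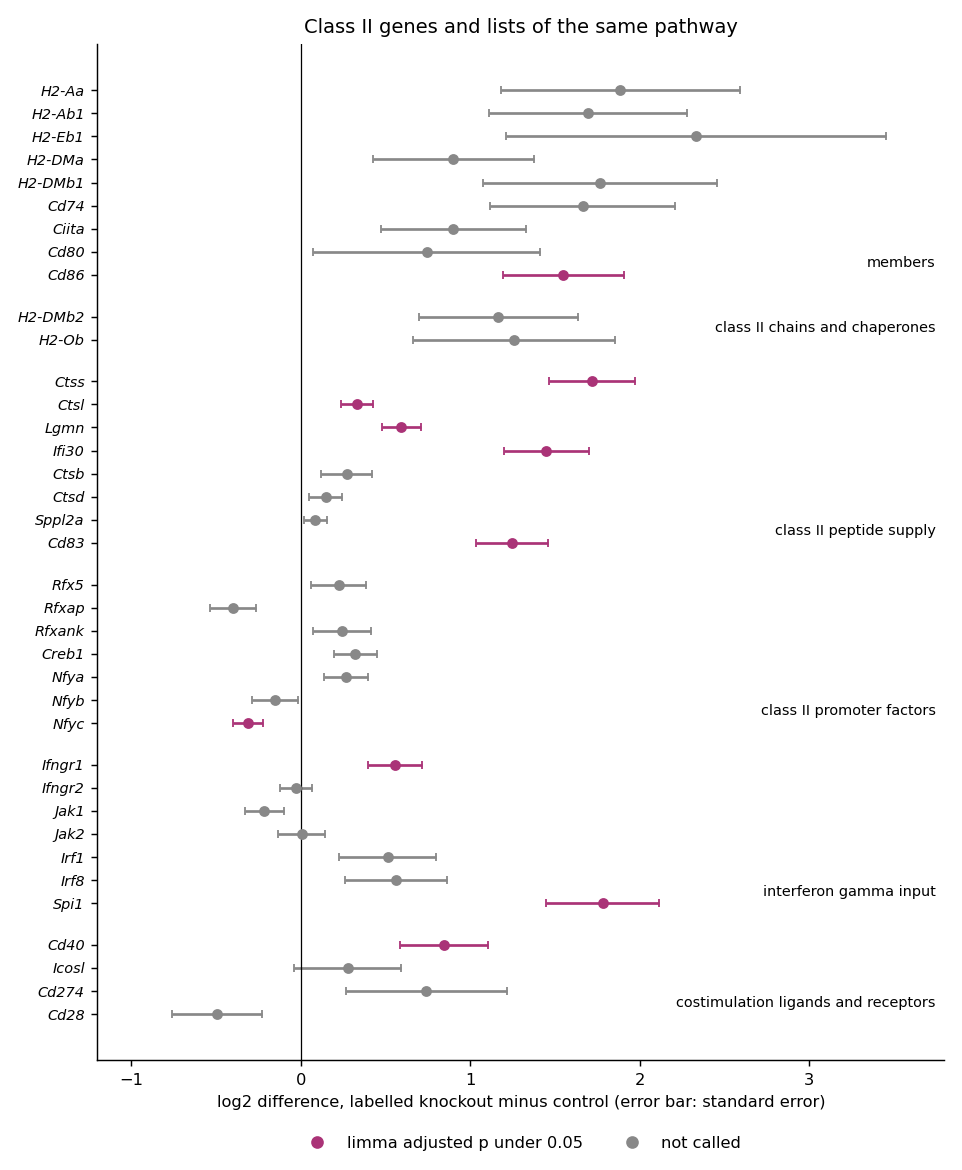
Log2 difference (labelled knockout minus control) with its standard error for the 9 genes and tested genes of 5 pathway lists. The class II chains have large differences with wide errors and are not called, whereas Ctss, Ifi30, Cd83 and Spi1 have narrower errors and are called.

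Markers of the cells that could carry class II were read beside it. Macrophage and monocyte markers summed to 1422 to 3209 normalised reads in the control libraries and 5154 to 6805 in those labelled knockout, without overlap. Of these markers, 8 of 12 were called, all higher, beside 11.6% of all genes called higher. Knockout replicate 4 had the highest sum, 6805, with a summed level of H2-Aa, H2-Ab1, H2-Eb1 and Cd74 of 1809, while knockout replicate 3 had 6038 with 10833. Relative to the macrophage list, the mean log2 level of the 4 class II genes was 2.52 and 3.41 in knockout replicates 1 and 3, 0.65 and 0.70 in replicates 2 and 4, and 1.97, 2.07, 1.47 and -0.63 in control replicates 1 to 4. Knockout replicates 2 and 4 thus had less class II RNA per macrophage marker than 3 of the 4 control joints. Relative to the same list, Cd86 was at -2.68 to -2.19 in the libraries labelled knockout and -3.56 to -2.20 in the controls. The group means differed by 0.26, beside 0.60 for the 4 class II genes. The log2 ratio of Cd86 to the pan-leukocyte gene Ptprc was -2.61 to -2.28 in the libraries labelled knockout and -3.56 to -1.97 in the controls. The group means of this ratio differed by 0.32, beside 0.47 for H2-Ab1 and 0.44 for Cd74 against Ptprc. Ptprc itself had a log2 difference of 1.23 (SE 0.37, limma adjusted p = 0.0404), a call lost under quantile normalisation (limma adjusted p = 0.0671). The part of leukocyte content in the rise of Cd86 was not tested.

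B cell markers did not move with the labels. Their 8 genes summed to 352, 42.4, 86.9 and 103 normalised reads in the control libraries and to 504, 78.7, 30.4 and 20.2 in those labelled knockout, and of 5 tested 0 were called (0 also at an unadjusted p under 0.05). Control replicate 1 and knockout replicate 1 were the high ones. In knockout replicate 3, which had the most Cd74, Pax5 was at 1.09 normalised reads, Fcmr was at 0, and no B cell marker exceeded 8.70. Dendritic cell markers summed to 254 to 347 and 303 to 534 in the groups, and 1 of 6 tested was called, Itgax, an integrin gene shared with macrophages. Itgax had 22.7, 26.2, 31.8 and 29.6 normalised reads in the control libraries and 116, 94.1, 187 and 51.9 in those labelled knockout (log2 difference 1.85, SE 0.34, limma adjusted p = 0.00784). Cd209a did not pass the test (log2 difference 1.57, SE 0.60, limma adjusted p = 0.0838), and Zbtb46, a transcription factor of dendritic and endothelial cells, lay at 126 to 208 normalised reads in every library with a log2 difference of -0.13 (SE 0.19, limma adjusted p = 0.645). Other dendritic cell genes were mostly low: Flt3 reached at most 12.97 normalised reads, Xcr1 17.95, Ccr7 14.0, Siglech 21.9, Clec9a 24.9 and Batf3 29.4, while Clec10a reached 92.7. The highest values of these genes were in knockout replicate 1, except for Clec9a (control replicate 1) and Batf3 (knockout replicate 3). Of 8 T cell genes 3 were tested and 1 was called, Cd3e, a chain of the T cell receptor complex, which fell from 54.7 ± 20.6 to 23.1 ± 7.46 (n = 4 each; log2 difference -1.19, SE 0.36, limma adjusted p = 0.0377), a call lost under the summed-read scaling (limma adjusted p = 0.061). Its partner Cd3d was at 0 in 4 libraries and at most 16.0. Cd4 (log2 difference 0.59, SE 0.62, limma adjusted p = 0.519) and Cd5 (0.73, SE 0.66, limma adjusted p = 0.444) went the other way and were not called. The 8 T cell genes summed to 43.9 to 152.5 normalised reads in the control libraries and 59.0 to 227 in those labelled knockout, with overlap. The part of each cell type in the class II difference was not tested.

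**Figure D4:**
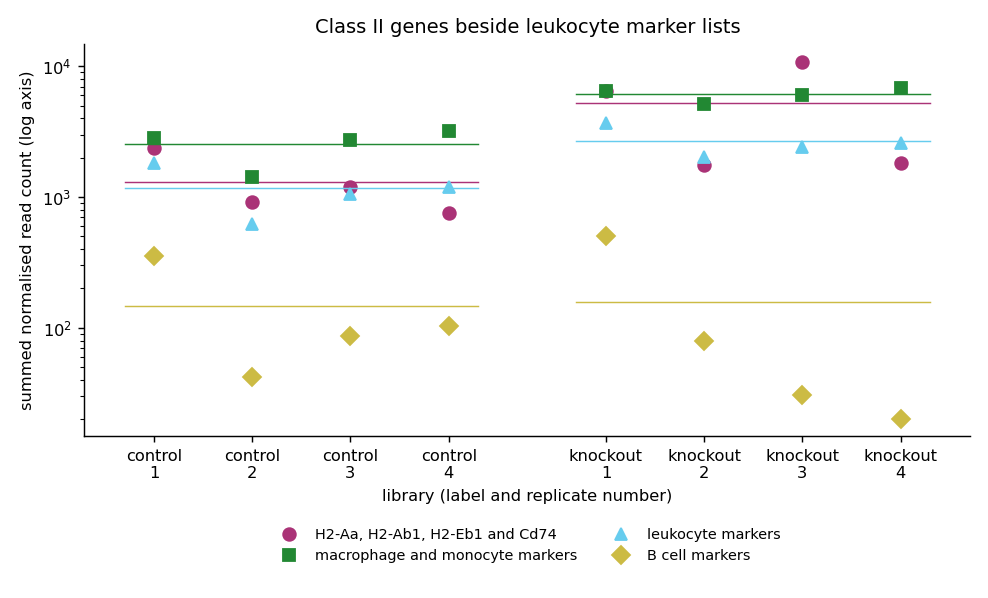
Summed normalised read counts (log axis) per library of H2-Aa, H2-Ab1, H2-Eb1 and Cd74 and of 3 marker lists; lines are group means. Macrophage and leukocyte markers are above every control in all 4 libraries labelled knockout. The class II sum is above every control only in replicates 1 (6485) and 3 (10833), and the other knockout replicates are below control replicate 1 alone. B cell markers are high in replicate 1 of each group.

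Across the 8 libraries, likeness to the class II chains was measured by Pearson's r of log2 values with the mean of H2-Aa, H2-Ab1, H2-Eb1 and Cd74, as a description over libraries that share a group structure. Among the 5 other genes of the set, H2-DMb1 followed it most closely (r = 0.96), then Ciita (0.87) and H2-DMa (0.76), while Cd86 (0.42) and Cd80 (-0.22) did not. With each group centred on its own mean, H2-DMb1 stayed at 0.94 and Ciita at 0.79, and Cd86 and Cd80 were at -0.42 and -0.62. Of the 11644 candidate rows with a mean of at least 50, other than the 9 genes, Tap1 was the most alike as it stands (0.95), a class I peptide transporter gene that lies among the class II genes on chromosome 17 (34187553 to 34197225). Cln3 and Pfn1 followed at 0.95 each. After centring, the most alike were Gimap1 (0.97), Nelfe (0.96; chromosome 17, 34850391 to 34856372) and Lmnb1 (0.96). Tap1 had 218, 130, 127 and 88.7 normalised reads in the control libraries and 335, 157, 268 and 150 in those labelled knockout, with its highest 3 and its lowest values in the same libraries as H2-Eb1, and it was not called (log2 difference 0.67, SE 0.32, limma adjusted p = 0.151). Like Tap1, H2-Aa, H2-Ab1, H2-Eb1 and H2-DMb1 were lowest in control replicate 4. The part of that library in these correlations was not tested.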

How the data were processed

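Normalised gene counts of 8 knee joint libraries were analysed, 4 per group. Per the labels, the series' design text and the submitters' processing notes, the authors aligned reads to mm10 with HISAT2, counted them per gene with featureCounts and normalised them with DESeq2; versions, annotation and strand setting are not given in the sources used here. The deposited signal is a count divided by a size factor: in each column 100% of the values were whole multiples (tolerance 0.01) of its smallest value, and the reads so recovered were used for edgeR 4.0.16 and DESeq2 1.42.0 only. The check is weak in control replicate 2 and knockout replicate 1, whose step is close to 1. Of the value columns, 0 were unmapped. The test was run on the 14949 genes that reached 10 in 4 or more libraries, on log2(value + 1) with limma 3.58.1 (intensity trend; called at an adjusted p under 0.05), after a check on simulated data. Exact two-sided permutation tests used the 70 assignments of libraries to groups (smallest p 0.0286). Positions, lengths and overlaps came from GENCODE M21 (99.3% of rows matched by name), and promoters from RefSeq GRCm38.p6. Names given: the 9 genes, up to 4 genes of each pathway list and 3 of each marker list by smallest p, and the 6 most alike. Other genes named (Ctsl, Loxl2, untested or defining markers, further MHC and sex-linked genes) were chosen after their values were seen. Members and lists were chosen with earlier results of these data known. Alternatives were pseudocounts of 0.5 and 5, no filter, other scalings and tools, a replicate block, a sex covariate and leaving out each library. A few single genes are counted in their lists but not reported here.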

Additional observations from a re-analysis of the deposited data

Results flagged for a closer look

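In 2 of 18 gene and group combinations a single library lay far from the other 3 of its group; chance gives about 1 in 20 such cases. Ciita had 56.2 normalised reads in control replicate 1, against 20.6 to 26.3 in the other controls. Cd86 had 27.4 normalised reads in control replicate 4, against 10.1 to 11.2 in the other controls, and without that library its log2 difference was 1.87 (limma adjusted p = 0.0136).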

How the results depend on the processing

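All 9 log2 differences kept their sign under the 19 alternatives, including 2 chosen after seeing the data (scaling on summed reads outside muscle, erythroid, neutrophil and top genes, and a covariate for Y-linked RNA). The number of the 9 genes called was 1 in the limma fit, 3 with edgeR, 5 with DESeq2, 3 with the summed-read scaling, and 1 to 3 when a library was left out. Over all genes the count of 3461 went from 1751 to 3841 when a library was left out, and was lower by over 1.5 times without knockout replicate 4 (1751), control replicate 2 (1887) or control replicate 4 (2194). The exact test gave 1 gene, and 0 to 1 when a library was left out: without any one library labelled knockout the exact permutation p of Cd86 was 0.0571, although its groups did not overlap. With the replicate block 6 of the 9 genes and 2018 of all genes were called. The replicate numbers were not found to pair the libraries: deviations of same-numbered libraries correlated at 0.213, -0.118, -0.233 and -0.063, and only replicate 1 correlated best with its own number. Depth limits Cd86, H2-Eb1 and H2-DMb1, whose lowest control libraries hold 10, 8 and 6 reads.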
